A study of Mus musculus with 12 samples.

Results

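The genes described here are 8 markers of phagocytic cells and of antigen presentation, out of 7667 named gene rows in a table of mouse cerebellar RNA. They are Lyz2, Cd68, Cd52 and Mpeg1, which are phagocyte genes, B2m, H2-D1 and H2-K1, which encode the subunits of MHC class I, and Ifi27, an interferon-inducible gene. All 8 had a row. They were chosen by name with the values of these 4 conditions already known, the 29-week comparison of genotypes among them, so their values are a description and no test is made on them. The study compared fxSCA7 92Q mice, which carry an expanded run of 92 CAG repeats in the gene for ataxin-7 and model spinocerebellar ataxia type 7, with wild-type littermates whose repeat has normal length. Cerebellum was taken at 12 and at 29 weeks of age, with no further treatment named, and each of the 4 conditions had 3 libraries, each made from a pool of 3 mice. The labels give no strain and no sex, and they name no promoter for the fxSCA7 allele.

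The tables hold 1 value per gene and condition, a normalized score in whole numbers that the authors formed from the 3 libraries. The spread between libraries is therefore unknown, and none of the differences below could be compared with it. Ratios are given as log2 of (score + 1), with the range that rounding to whole numbers allows in place of an error. All 4 columns had a median of 22. The cerebellar markers Pcp2 of Purkinje cells (871 to 1661) and Gabra6 of granule cells (337 to 417) were high in every condition. Xist, expressed from the inactive X of females, was 66 in wild type and 30 in 92Q at 12 weeks, and 63 and 25 at 29 weeks. The Y-linked Eif2s3y was 0 and 12 at 12 weeks and 6 and 15 at 29 weeks. At either age genotype therefore cannot be told apart from the sex makeup of the pools, and in wild type Eif2s3y differed with age as well. The library numbers in the titles form separate runs for the younger and older animals, and a library of the older 92Q animals has a number apart from the rest, whose weight in that column cannot be separated. Whether the score is per length of transcript is not stated, so levels are compared between conditions and not between genes. The tissue is bulk cerebellum, in which more cells of a type and more RNA per cell cannot be told apart.

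Microglia and the macrophages of the brain's borders are the resident phagocytes of the cerebellum. They take up debris into lysosomes, where hydrolases and the membrane protein CD68 are found, and they release lysozyme. MHC class I shows peptides from inside the cell to cytotoxic T cells. It is made of a heavy chain, encoded among others by H2-K1 and H2-D1, and of beta-2-microglobulin, the light chain that all class I heavy chains share. The class I genes are expressed by many cell types and are inducible by interferon, whereas lysozyme M and MPEG1 are largely restricted to myeloid cells.

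The heavy chain genes lie on the same chromosome and their promoters are closely alike, so their promoter sequences are shown before their values. RefSeq windows of 250 bases before and 50 after an annotated start (GRCm38.p6) were found for 6 of the 8 genes, all but Cd52 and Ifi27. Local alignment of the bases before the start matched a stretch of 192 columns in H2-K1 and H2-D1, of which 172 were identical (89.6%). It is printed with the promoter of B2m, 5′ to 3′ on the strand of the gene. H2-K1 is on the minus strand of chr17:34000334-34000525, H2-D1 on the plus strand of chr17:35262856-35263046, and B2m on the plus strand of chr2:122147520-122147686. Capitals mark, in either orientation, the letters GGGGATTCC of an NF-kB site, the interferon response element core written as GAAANNGAA or GAANNGAAA, the CCAAT box and TATAAA.
H2-K1: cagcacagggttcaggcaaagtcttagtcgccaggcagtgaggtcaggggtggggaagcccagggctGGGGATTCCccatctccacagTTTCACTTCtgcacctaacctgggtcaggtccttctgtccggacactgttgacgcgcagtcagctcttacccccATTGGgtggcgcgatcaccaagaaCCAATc
H2-D1: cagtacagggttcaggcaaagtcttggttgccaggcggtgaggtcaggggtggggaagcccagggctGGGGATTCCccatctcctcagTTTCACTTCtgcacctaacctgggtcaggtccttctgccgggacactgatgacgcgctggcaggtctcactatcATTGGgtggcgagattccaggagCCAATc
B2m: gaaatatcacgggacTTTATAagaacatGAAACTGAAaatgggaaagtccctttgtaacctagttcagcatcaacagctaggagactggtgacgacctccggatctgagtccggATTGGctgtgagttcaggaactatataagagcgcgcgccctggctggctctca

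Both heavy chain promoters held the NF-kB letters, which were present in 0.25% of 32851 promoter windows of the same length. The interferon core GAANNGAAA followed in reverse orientation (7.52% of windows). Both motifs lie in the aligned stretch, so the 2 promoters are not separate finds, and nothing is read from these shares. In H2-K1 these matches began 125 and 104 bases before the annotated start, and in H2-D1 171 and 150 bases before it. Where a gene had several annotated starts, the most upstream was used for genes on the plus strand. The most downstream was used for genes on the minus strand, so positions in H2-K1 and H2-D1 may not be comparable. B2m held the other spacing of the interferon core, GAAANNGAA (8.56% of windows), 139 bases before its start. Its CCAAT box, in reverse orientation, lay 53 bases before the start, and CCAAT was found in 37.4% of windows. TATAAA (13.6% of windows) began 26 bases before the start of H2-D1 and 21 bases after that of H2-K1, and in B2m the only match was in reverse orientation. Among the phagocyte genes, the window of Lyz2 held none of the 7 motifs searched. Those of Cd68 and Mpeg1 each had GAANNGAAA after the start, beginning at base 23 in Cd68 and at base 25 in Mpeg1, and both had CCAAT. The PU.1 letters GAGGAAGT (3.20% of windows) and the CRE letters TGACGTCA (1.79%) were in none of the 6 windows. A match of letters is not a measured binding site.

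The phagocyte genes were high in 1 condition, 92Q at 29 weeks. Lyz2, which encodes lysozyme M, was listed at 3 in wild type and 4 in 92Q at 12 weeks, and at 3 in wild type and 22 in 92Q at 29 weeks. Its log2 ratio for 92Q against wild type at 29 weeks was 2.52 (rounding range 2.32 to 2.75), the second highest of 7666 genes compared. Cd52, which encodes a small surface glycoprotein of leukocytes, was 4 and 6 at 12 weeks and 7 and 25 at 29 weeks, in wild type and 92Q respectively. Its ratio at 29 weeks was 1.70 (1.59 to 1.82).

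Cd68, the lysosomal membrane glycoprotein, was 5 in wild type and 6 in 92Q at 12 weeks, and 6 in wild type and 20 in 92Q at 29 weeks, a ratio of 1.58 (1.45 to 1.73) for the older animals. Mpeg1, whose product forms pores in the membranes of engulfed bacteria, was 4 in both genotypes at 12 weeks and 5 in wild type against 15 in 92Q at 29 weeks (1.42, range 1.25 to 1.58). For each of the 4 genes the other 3 conditions lay between 3 and 7, and the 92Q value at 29 weeks stood clear of them. In rank of this ratio they were numbers 2, 5, 7 and 9 from the top for Lyz2, Cd52, Cd68 and Mpeg1. In the authors' deposited table of 99 selected genes these 4 were present with the same values, and B2m, H2-D1, H2-K1 and Ifi27 were not in it.

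Every row of the table reached 10 in one or more conditions. All 4 phagocyte genes reached 10 in 92Q at 29 weeks alone, so their direction in the comparisons that use this condition was set by that. The same held for 143 rows of the table, whose median ratio at 29 weeks was 0.14. Of these rows 19 were at least 1.5-fold higher, and in rank Lyz2 was number 1, Cd52 number 4, Cd68 number 5 and Mpeg1 number 6. Lyz2 shares 15.4% of its 1267 distinct 50-base words, the length of the reads, with its neighbour Lyz1, which has no row here. Cd68, Cd52 and Mpeg1 share none with another gene.

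**Figure D1:**
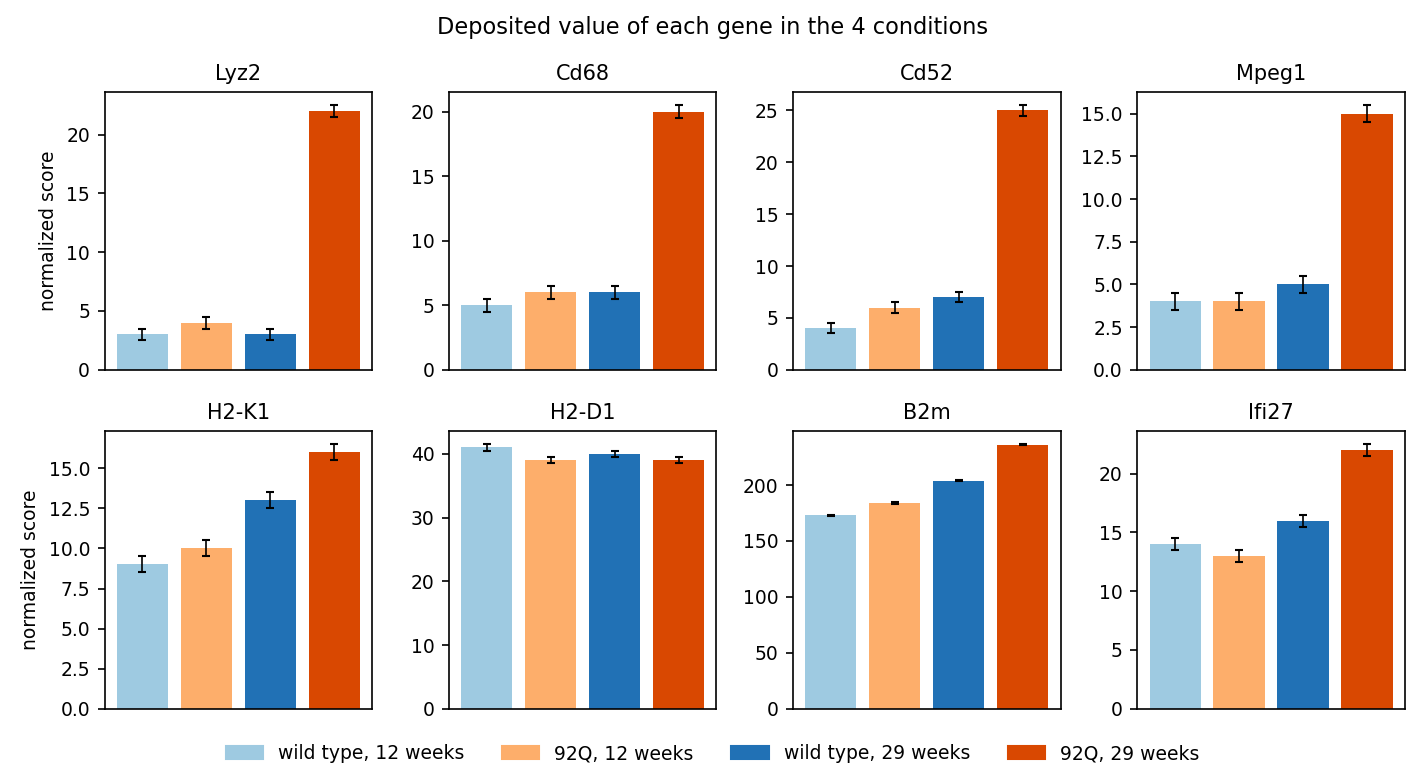
Bars give the deposited normalized score of each of the 8 genes (y axis, each panel with its own scale from 0) in wild type and 92Q at 12 and 29 weeks; the thin lines are the rounding of 0.5 and not an error between libraries. Lyz2, Cd68, Cd52 and Mpeg1 are at 15 to 25 in 92Q at 29 weeks and at 3 to 7 elsewhere. H2-K1 and B2m, like Cd52, rise from wild type to 92Q at 12 weeks, then to wild type and to 92Q at 29 weeks. H2-D1 stays between 39 and 41.

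The MHC class I genes did not share that pattern. B2m, the common light chain, was 173 in wild type and 184 in 92Q at 12 weeks, and 204 in wild type and 236 in 92Q at 29 weeks. Its ratio for 92Q against wild type was 0.09 (rounding range 0.08 to 0.10) at 12 weeks and 0.21 (0.20 to 0.22) at 29 weeks. The 29-week ratio is a 1.16-fold difference. H2-K1, the heavy chain H-2K, was 9 and 10 at 12 weeks and 13 and 16 at 29 weeks, in wild type and 92Q, with ratios of 0.14 (0.00 to 0.28) and 0.28 (0.19 to 0.37). B2m and H2-K1 thus had the same order of conditions, with the older animals above the younger ones in each genotype. Cd52 had this order too, so the order does not set the class I genes apart from the phagocyte genes. What differed was the size of the steps.

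H2-D1, the heavy chain H-2D, was 41 in wild type and 39 in 92Q at 12 weeks, and 40 in wild type and 39 in 92Q at 29 weeks. Its whole range was 2 score units, and its 29-week ratio was -0.04 (-0.07 to 0.00). Of 3443 genes whose mean value lay within 2-fold of that of H2-D1, 73.0% had a 29-week ratio as high or higher. For B2m this share was 4.66% of 515 genes, and for H2-K1 3.69% of 4150 genes. The rows of the 2 heavy chain genes thus had different patterns over the 4 conditions, from 9 to 16 for H2-K1 and from 39 to 41 for H2-D1. Any bearing of the promoter stretches on these values was not tested.

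Class I heavy chain genes share stretches of sequence, and reads of 50 bases from those stretches can be split among them. H2-K1 shares 5.43% of its 2008 distinct 50-base words with H2-D1, and 6.87% with any of 25 other genes. H2-D1 shares 5.58% of its 2275 words with H2-K1 and 13.9% with any of 168 other genes, the most of them (6.68%) with H2-Q1, which has no row. The 168 include genes outside the class I family, such as Sirt1 and Kif1b. No source used here says how the authors assigned such reads, so the split between the 2 rows is uncertain. Their sum was 50 in wild type and 49 in 92Q at 12 weeks, and 53 and 55 at 29 weeks (log2 ratio 0.05 at 29 weeks). B2m shares no 50-base word with another gene. It overlaps Patl2 on the opposite strand, as Cd52 overlaps Crybg2, and neither partner has a row.

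Ifi27, which encodes a small interferon-inducible protein of mitochondrial and nuclear membranes, was 14 in wild type and 13 in 92Q at 12 weeks, and 16 in wild type and 22 in 92Q at 29 weeks. Its ratio was -0.10 (rounding range -0.20 to 0.00) at 12 weeks and 0.44 (0.36 to 0.51) at 29 weeks. Like the phagocyte genes it was highest in 92Q at 29 weeks, but by 1.35-fold against wild type, below the threshold of 1.5-fold. Of 5092 genes with a mean value within 2-fold of its own, 0.825% had a ratio as high or higher at 29 weeks.

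Over the 8 genes, 4 were at least 1.5-fold higher in 92Q at 29 weeks and 0 were lower by as much, where 0.535% of all 7666 genes compared were higher and 0.730% lower. The 4 were the phagocyte genes, whose median ratio was 1.64, against 0.21 for the 3 class I genes and 0.00 for all genes. At 12 weeks 6 of the 8 could be compared, since Lyz2 and Mpeg1 were under the minimum of 5 in both genotypes, and 0 of them were 1.5-fold higher or lower (all genes: 0.0783% higher, 0.170% lower). The members were picked with these contrasts in view, so nothing is read from their share. The nearest to the threshold were Cd52 (0.49) at 12 weeks and Ifi27 (0.44) at 29 weeks.

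**Figure D2:**
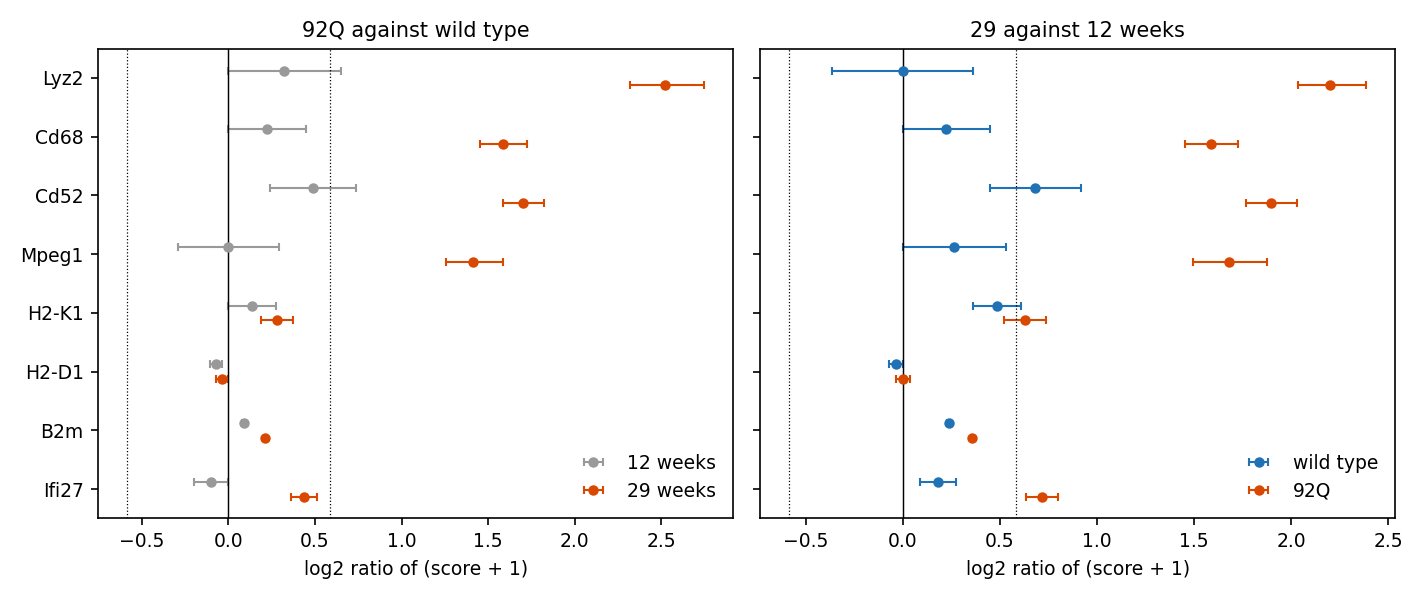
Points give the log2 ratio of (score + 1) of each gene (x axis) for 92Q against wild type at each age (left) and for 29 against 12 weeks in each genotype (right); horizontal lines are the rounding range and dotted lines mark 1.5-fold. At 29 weeks the 4 phagocyte genes lie between 1.42 and 2.52 and the class I genes between -0.04 and 0.28, while the wild-type age ratio of H2-K1, 0.49, is larger than its genotype ratio at either age.

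With age in the wild type, 6 of the 7 members compared were higher at 29 weeks, and Lyz2 was listed at 3 at both ages. Over all genes compared, 2489 of 7663 were higher, 3517 lower and 1657 equal. From the top of 7663 genes Cd52 was number 10, H2-K1 25, Mpeg1 162, B2m 242, Cd68 273, Ifi27 437 and H2-D1 4341. Between 12 and 29 weeks, 1 of 7 members compared was at least 1.5-fold higher, Cd52 at 7 against 4 (0.68, range 0.45 to 0.92, and 0.415 with a pseudocount of 5), and 0 were lower (all genes: 0.222% higher, 0.144% lower). H2-K1 had a ratio of 0.49 (0.36 to 0.61), and B2m one of 0.24 (0.23 to 0.24), as high or higher in 1.17% of the 515 genes near its level. Cd68 and Mpeg1 had ratios of 0.22 and 0.26, each a difference of 1 score unit, Ifi27 one of 0.18, and H2-D1 one of -0.03; those of Mpeg1 and H2-D1 were 0 after quantile normalization. Expressed in score units, the step from 12 to 29 weeks in wild type was 31 of the 63 units that separate 92Q at 29 weeks from wild type at 12 weeks for B2m, or 49.2%. This share was 57.1% for H2-K1, 25.0% for Ifi27, 14.3% for Cd52, 9.09% for Mpeg1 and 6.67% for Cd68, and Lyz2 had the same wild-type value at both ages.

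In 92Q, 6 of the 8 genes were at least 1.5-fold higher at 29 than at 12 weeks and 0 were lower, against 0.978% and 0.483% of all 7667 genes. The phagocyte genes had ratios of 2.20 for Lyz2, 1.89 for Cd52, 1.68 for Mpeg1 and 1.58 for Cd68. Ifi27 (22 against 13, 0.72) and H2-K1 (16 against 10, 0.63) were the other two, and the rounding range of H2-K1, 0.52 to 0.74, spans the threshold. With a pseudocount of 5 its ratio was 0.485, under the threshold, and 5 genes were past it; at 2-fold the count was 4, the phagocyte genes. B2m had a ratio of 0.36 and H2-D1 was 39 at both ages. This comparison shares its 29-week column with the genotype comparison, so the pair are not separate results.

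The difference of the genotype ratios, 29 minus 12 weeks, was 2.20 (rounding range 1.67 to 2.75) for Lyz2, 1.42 for Mpeg1, 1.36 for Cd68 and 1.21 for Cd52. It was 0.54 (0.36 to 0.71) for Ifi27, 0.14 (-0.09 to 0.37) for H2-K1, 0.12 (0.11 to 0.14) for B2m and 0.03 (-0.04 to 0.11) for H2-D1. For H2-K1 and H2-D1 the rounding range includes 0.

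The rest of the class I pathway differed little between genotypes at 29 weeks. Of 26 genes on a list of class I heavy chains, peptide transport and loading, 10 had a row, 8 were higher and 2 lower in 92Q, with a median of 0.15. Over all genes compared, 3791 of 7666 were higher in 92Q, 2003 lower and 1872 equal, so higher values were the more common in the whole table. Of the 10 genes 0 reached 1.5-fold, as was so for most of the table, where 0.535% were as much higher. Without B2m, H2-D1 and H2-K1 the other 7 had a median of 0.09. The highest were Psmb10, a catalytic subunit of the immunoproteasome that cuts peptides for class I, at 14 against 11 (0.32), Psme1, a subunit of the proteasome activator PA28, also at 14 against 11 (0.32), and Tapbp, the tapasin that links class I to the peptide transporter, at 21 against 17 (0.29). The general chaperones of the endoplasmic reticulum that also help class I to fold, Calr, Canx and Pdia3, had ratios of -0.06, 0.05 and 0.02. The peptide transporter genes Tap1 and Tap2, the regulator Nlrc5 and the H2-Q, H2-T and H2-M3 heavy chains on the list have no row here.

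Among 36 genes of the interferon response and its receptors 9 had a row. At 29 weeks 6 were higher in 92Q, 1 lower and 2 equal, with a median of 0.14, and without Ifi27 the median was 0.13 (all genes: 3791 of 7666 higher, 2003 lower). Ifngr1 reached 10 in 92Q at 29 weeks alone, which set its direction. Of the 7 listed genes at 10 or more in every condition, 4 were higher, 1 lower and 2 equal, with a median of 0.13 (all such genes: 3447 of 7066 higher). The highest was Lgals3bp, a secreted glycoprotein, at 21 against 12 (0.76) and the only one past 1.5-fold (all genes: 0.535%). Ifitm3, a membrane protein that blocks virus entry, was 28 against 23 (0.27). The receptor subunits Ifnar1, Ifnar2 and Ifngr1 had ratios of 0.13, 0.14 and 0.14, the signalling kinase Jak1 and the transcription factor Stat2 had the same value in both genotypes, and Ifngr2 was 25 against 26. The strongly inducible genes on the list, such as Ifit1, Isg15 and Irf7, have no row here.

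Of 14 listed genes of the MHC class II pathway only 2 had a row, Cd74 and Ctss, and neither encodes a class II chain. Both were past 1.5-fold at 29 weeks, where 0.535% of all genes compared were as much higher. Cd74, the invariant chain that guides class II molecules, was 4 in wild type and 5 in 92Q at 12 weeks, and 6 in wild type and 15 in 92Q at 29 weeks (1.19), and it too reached 10 in that condition alone. Ctss, the cathepsin that trims the invariant chain, was 21, 22, 30 and 55 in the same order (0.85), and it is counted in the microglia and lysosome lists too. Cd74 was also the third nearest gene to the mean pattern of the phagocyte members over the 4 conditions. By Euclidean distance of centred log2 values among 7659 other genes, Serpina3n, a protease inhibitor of reactive astrocytes, was nearest (0.29), then Tyrobp (0.40), Cd74 (0.45) and the microglial receptor Trem2 (0.49). Serpina3n, Cd74 and Trem2, like the 4 members, reached 10 in 92Q at 29 weeks alone, so part of their likeness was set by that; Tyrobp was at 10 or more in every condition.

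The class I pattern had many near neighbours. Among 7642 genes, 143 lay within a distance of 0.1 of the mean pattern of B2m, H2-D1 and H2-K1, and the nearest were Map7, a microtubule-binding protein gene (0.01), Gaa, the lysosomal acid alpha-glucosidase (0.03), Syndig1l (0.03) and Rwdd2a (0.03). Gaa was 76 and 80 at 12 weeks and 89 and 101 at 29 weeks in wild type and 92Q. With 4 points a pattern of small steps is common in the table, and these distances are descriptions.

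**Figure D3:**
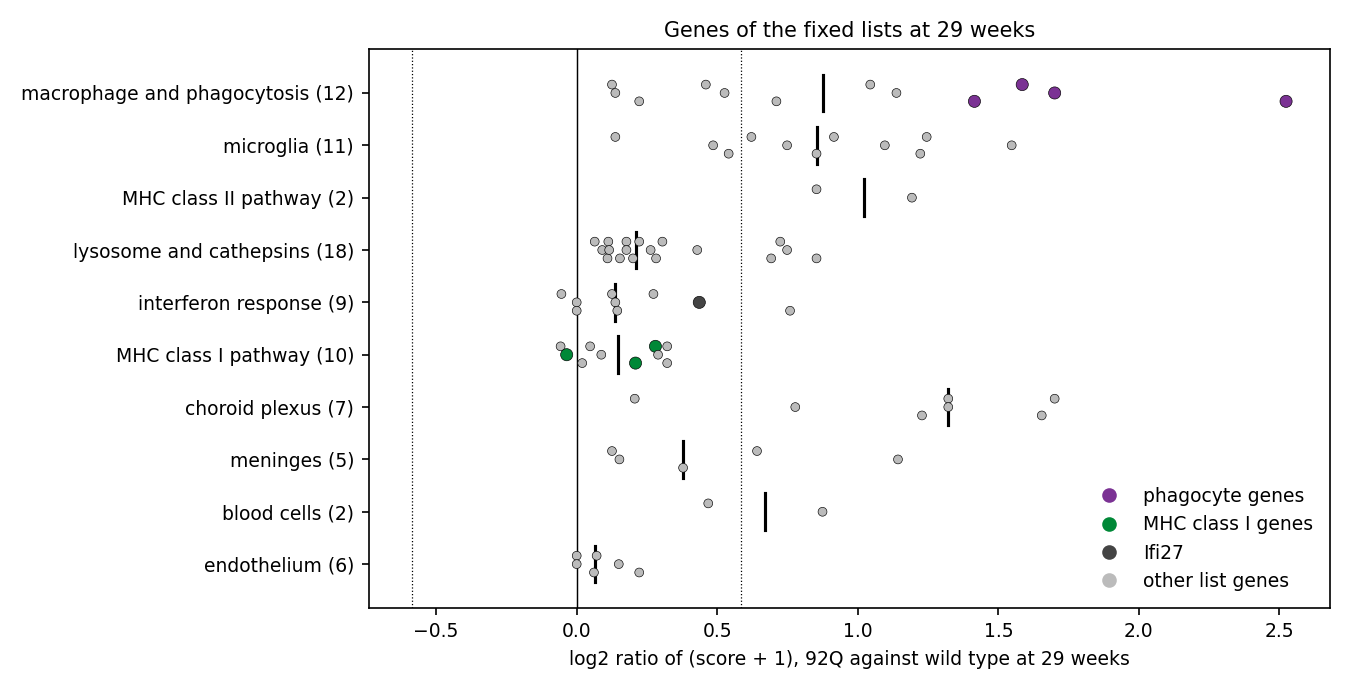
Each point is a gene of a fixed list (rows, with the number of genes measured), placed by its log2 ratio of (score + 1) for 92Q against wild type at 29 weeks; black bars are list medians and dotted lines mark 1.5-fold. The phagocyte genes are the 4 highest of the macrophage list, whereas the class I and interferon lists have medians of 0.15 and 0.14 and the choroid plexus list one of 1.32, or 0.717 over its 2 genes at 10 or more in every condition.

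Other macrophage genes were higher in 92Q at 29 weeks too. Besides the 4 members, 8 of the listed macrophage and phagocytosis genes had a row; all 8 were higher, 3 of them by 1.5-fold or more, with a median of 0.49 (all genes: 3791 of 7666 higher, 0.535% by 1.5-fold). Among these, Fcgr3 and Cyba reached 10 in 92Q at 29 weeks alone, which set their direction. The 4 listed genes at 10 or more in every condition were all higher, 1 of them past 1.5-fold, with a median of 0.37. Of all 7066 such genes, 3447 were higher and 16 were past 1.5-fold. Fcer1g, the signalling chain of Fc receptors, was 32 against 15 (1.04), and Fcgr3, an Fc receptor for IgG, 10 against 4 (1.14). Mertk (0.13) and Axl (0.22), receptors for dying cells, and Coro1a (0.14), an actin regulator of leukocytes, had the smallest ratios. In the list of lysosomal genes all 18 with a row were higher, with a median of 0.21, against 3447 of 7066 genes at 10 or more in every condition, as these 18 were. Past 1.5-fold were 4 of the 18, against 16 of the 7066, among them Ctss, Ctsd (298 against 180) and Ctsz (41 against 25).

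Set against 5 microglial genes that had 10 or more in every condition, C1qa, C1qb, C1qc, Csf1r and Tyrobp, the 2 groups parted in ratio. The mean log2 ratio of these 5 for 92Q against wild type was -0.05 at 12 weeks and 1.09 at 29 weeks. At 29 weeks the ratio of Lyz2 exceeded that mean by 1.44, of Cd52 by 0.62, of Cd68 by 0.50 and of Mpeg1 by 0.33. The 5 microglial ratios ran from 0.62 for Csf1r to 1.55 for Tyrobp, and Mpeg1 (1.42) lay within them. The rounding ranges of Cd68 (1.45 to 1.73) and Cd52 (1.59 to 1.82) overlapped that of Tyrobp (1.47 to 1.62). The 4 members are in the table through 92Q at 29 weeks alone. The 5 microglial genes were required to be at 10 or more throughout, which favours a higher ratio for the members. The median excess of the 4, 0.56, was 0.297 with a pseudocount of 5. The class I genes and Ifi27 stayed below the microglial mean, with differences of -0.80 for H2-K1, -0.88 for B2m, -1.12 for H2-D1 and -0.65 for Ifi27. In score units the 29-week difference was 32 for B2m, 3 for H2-K1, -1 for H2-D1 and 6 for Ifi27. It was 19 for Lyz2, 18 for Cd52, 14 for Cd68 and 10 for Mpeg1. Whether such units are alike between genes is not stated. The class I genes are expressed by many cell types, and the share of their RNA from phagocytes was not measured. For age in wild type the microglial mean was 0.12, and B2m (0.24) and H2-K1 (0.49) lay above it by 0.12 and 0.37.

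**Figure D4:**
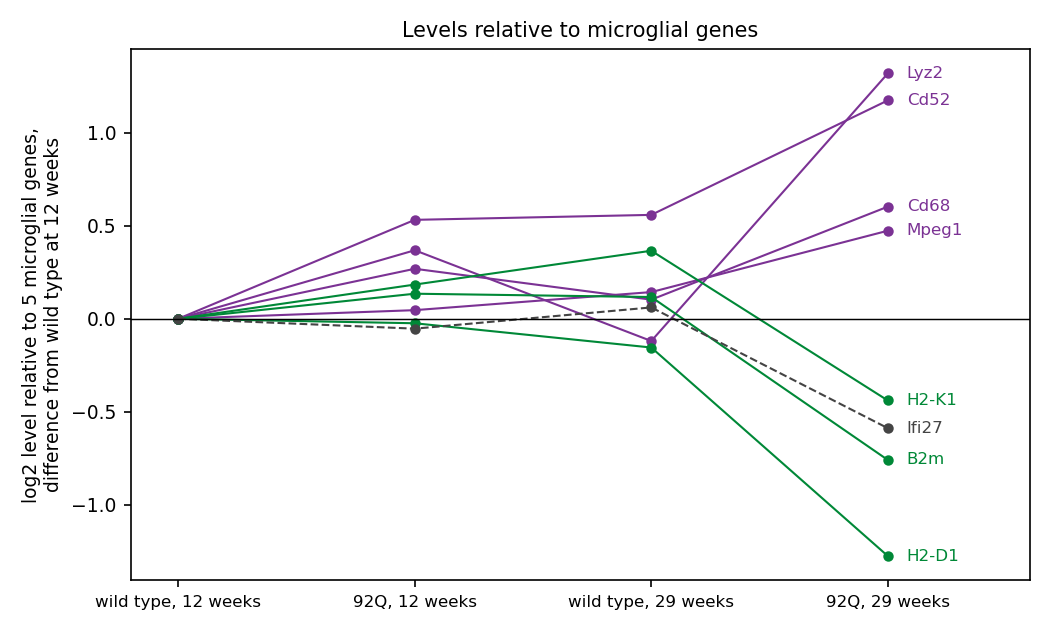
Lines follow the log2 level of each gene relative to the mean of 5 microglial genes in the same condition, as the difference from wild type at 12 weeks (y axis) over the 4 conditions (x axis, with no order in time implied by the lines). In 92Q at 29 weeks Lyz2 (1.32) and Cd52 (1.17) are highest and H2-D1 (-1.28) is lowest.

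Markers of other tissues also differed between these conditions, and their part in the phagocyte values was not tested. The choroid plexus, whose tissue contains macrophages of its own, was represented by 7 of 13 listed genes, whose summed score was 456 in wild type and 65 in 92Q at 12 weeks, and 579 and 1711 at 29 weeks. Ttr, its thyroid hormone carrier, was 336, 6, 445 and 1403 in that order. Kl, Sostdc1, Kcnj13 and Clic6 of the 7 reached 10 in 92Q at 29 weeks alone; the 2 at 10 or more in every condition had a median ratio of 0.717, against 1.32 for all 7. At 12 weeks the 4 phagocyte genes, each at 3 to 6, summed to 16 in wild type and 20 in 92Q. Rounding limits what values this low can show. The 11 microglia genes summed to 171 and 169 at that age. The 2 rows of blood genes, both globins, summed to 111 in wild type and 157 in 92Q at 29 weeks, and the 6 endothelial genes to 514 and 544. The 5 meningeal genes summed to 1451 and 1663, most of it Ptgds (1349 and 1499), with a list median ratio of 0.38. Past 1.5-fold were 2 of the 5, Igfbp2 at 23 and 52 (1.14) and Igf2 at 49 and 77 (0.64), against 0.535% of all genes. None of the 15 listed lymphocyte genes, such as Cd3e and Cd8a, has a row. The 11 microglia genes summed to 199 and 392. Trem2, Cx3cr1 and Selplg of these reached 10 in 92Q at 29 weeks alone, which set their direction at that age. The same held for the globin row Hba-a1,Hba-a2 and for Slc13a4 of the meningeal genes. The 7 microglia genes at 10 or more in every condition were all higher in 92Q at 29 weeks, with a median ratio of 0.92 (all such genes: 3447 of 7066 higher).

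By position (mm10, GENCODE M21, whole protein-coding genes) Lyz2 (ENSMUSG00000069516) lies on chr10:117277331-117282321, Cd68 (ENSMUSG00000018774) on chr11:69664213-69666153, Cd52 (ENSMUSG00000000682) on chr4:134082448-134095082 and Mpeg1 (ENSMUSG00000046805) on chr19:12460779-12465283. H2-K1 (ENSMUSG00000061232) is on chr17:33996017-34000347, H2-D1 (ENSMUSG00000073411) on chr17:35262730-35267499, B2m (ENSMUSG00000060802) on chr2:122147686-122153083 and Ifi27 (ENSMUSG00000064215) on chr12:103434211-103440239. The printed stretch of H2-D1 lies inside the GENCODE span of the gene, whose outermost transcript starts further upstream than the RefSeq one.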

How the data were processed

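Total RNA of cerebellum was made into 12 TruSeq libraries and read as single-end reads of 50 bases, per the labels' protocols. Bowtie 0.12.7, SAMtools 0.1.12a, Cuffdiff 1.3.0 and mm10 are named without roles in the submitters' processing notes; no source used here gives the annotation, filters or normalization. The authors deposited whole-number values of a normalized score, 1 for each gene in each condition, which hides the depth of each library. Of 7684 rows, 17 with a date number for a name were left out. A log2 ratio used a pseudocount of 1 and was counted where one or both conditions reached 5; the threshold was 1.5-fold. No test was possible with 1 value per condition. Members and lists were chosen with earlier results of these data known. Named were the members, up to 4 genes of each list with the largest 29-week ratios and the nearest patterns; other genes were named after their values were seen, as was the interferon core GAANNGAAA. Words of 50 bases came from GENCODE M21 transcripts, both strands. The ratio step was tested on simulated data. Python 3.11.15, pandas 2.3.3 and Biopython 1.88 were used. Alternatives were pseudocounts of 0.1 and 5, 3 scalings, other minimums and a 2-fold threshold.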

Additional observations from a re-analysis of the deposited data

How the results depend on the processing

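The 29-week differences of the phagocyte genes kept their direction under every alternative that could be computed, and the minimum of 10 in both conditions leaves them out altogether, which ends the count of genes at least 1.5-fold higher (0 at 29 weeks between genotypes, 0 with age in wild type and 2 with age in 92Q). Restricting the members to those at 10 or more in every condition, chosen after the data were seen, gave counts of 0, 0 and 1, and class I medians of 0.0868, 0.101 and 0.179 in the same order, since it drops H2-K1. The minimum of 10 gave a class I median of 0.101 with age in wild type. The phagocyte median at 29 weeks was 1.25 with a pseudocount of 5. With age in 92Q it was 1.96 with a pseudocount of 0.1, 1.32 with 5 and 1.61 after quantile normalization. The 1 gene past 1.5-fold with age in wild type, Cd52, was lost (count 0) with a pseudocount of 5, after quantile normalization and at 2-fold. Relative to the microglial genes a pseudocount of 5 gave medians of 0.297 for the phagocyte and -0.75 for the class I genes. Upper quartile scaling put the class I median at 0.123 between genotypes at 12 weeks and at 0.271 with age in wild type. Median ratio scaling put it at 0.182 between genotypes at 29 weeks, 0.254 with age in wild type and 0.346 with age in 92Q, and quantile normalization at 0.102 at 12 weeks, 0.308 with age in wild type and 0.367 with age in 92Q. B2m, H2-K1 and Ifi27 kept their signs in all of these. After quantile normalization Mpeg1 and H2-D1 with age in wild type went to 0. H2-D1 with age in 92Q was equal at both ages as deposited. It was -0.0109 after median ratio scaling and 0.009 after quantile normalization. With age in 92Q the count past the threshold was 5 with a pseudocount of 5, where H2-K1 was at 0.485, and 4 at 2-fold. Including these 2 counts, 121 other values of groups and counts under the alternatives stayed within their rounding range or, for counts, within 1.5 times. No paired analysis was possible because the table has no value per library, so leaving out a library and the replicate block were not run. Depth per library is unknown, and rounding limits the ratios of genes under 10 most.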
